A study of Mus musculus with 18 samples.

Results

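Tenm2, Aopep, Clec16a, Dennd1a, Ngly1, Rev3l, Ago3 and Osbpl3 are 8 of the 21900 protein-coding mouse genes, chosen by their H3K36me2 islands that were higher in H3K36M mutant than in wild-type (WT) epidermis. Tenm2, Aopep, Clec16a and Dennd1a are among the 6 genes with the most higher islands. Ngly1, Rev3l, Ago3 and Osbpl3 rank 7 to 10 of all genes by the fold of their highest island. An island is a stretch of enriched signal, in steps of 200 bp, that SICER2 compares between the pooled reads of each genotype. It is called higher or lower below at the authors' FDR under 0.05. The 8 gene bodies with 5 kb on both sides held 76 of 13409 islands. Several higher islands were found at 5 of the 8 genes, while Rev3l, Ago3 and Osbpl3 had 1 each.

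The signal was measured by CUT&RUN, in which an antibody guides a nuclease that releases the DNA around a histone mark, on dissociated mouse epidermis. Both groups carried LSL-H3K36M, a histone H3 with methionine in place of lysine 36 behind a removable stop. The mutant animals were Krt14-Cre(+); LSL-H3K36M and the WT animals Krt14-Cre(-); LSL-H3K36M, with 3 animals per genotype. Each animal gave 1 library per antibody (H3K36me2, H3K27me3 and IgG), and age, sex and treatment are not used here. Krt14 drives the Cre in basal keratinocytes, so epidermal cells with no keratin 14 history, such as melanocytes and immune cells, keep unmutated H3. The H3K36me2 islands rest on 59539924 mutant and 47361190 WT reads, pooled per genotype. There is no value per animal, so the island differences have no replicate check. In this mixed tissue, fewer cells of a type and less mark per cell cannot be told apart. Of 8 epidermis marker genes 3 had a higher island (Krt5, Krt14 and Trp63) and 2 a lower one (Ivl and Trp63). Only the mutant animals carried Krt14-Cre. Whether its Krt14 sequence adds reads to the Krt14 island (fold 2.71 in the authors' deposited table) was not tested. Of 17 melanocyte, immune, fibroblast and endothelial marker genes 0 had a higher and 5 a lower one. Among all protein-coding genes 7.13% had a higher island, and the share with a lower one was not counted. The part of cell composition in the results below was not tested.

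As background, H3K36me2 is laid down by NSD enzymes over broad domains between and within genes, and it limits the Polycomb mark H3K27me3. H3K36M traps or inhibits the H3K36 methyltransferases, and its known overall effect is a loss of H3K36 methylation. Along transcribed genes, H3K36me3 placed by SETD2 usually grows toward the 3′ end, and it is made from dimethylated H3K36.

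Higher islands made up 35 of the 76 islands at the 8 genes, lower islands 11, and 30 were called neither way. Among all islands 17.3% were higher and 58.1% lower in the mutant. The members were chosen on these calls, so their share is a description of the choice. Of all protein-coding genes 7.13% had any higher island. Among the 2429 of at least 100 kb, which 7 of the 8 members are, 465 had one. Clec16a had 7 higher and 0 lower islands among 13. Tenm2 and Dennd1a each had 7 higher among 14, with 3 and 1 lower. Aopep had 7 higher and 3 lower among 23, and most of its islands, 13, passed in neither direction. Ngly1 had 4 higher and 1 lower island, Rev3l and Ago3 a single island each, and Osbpl3 1 higher against 3 lower. The higher islands are thus few in Rev3l, Ago3 and Osbpl3, and they are a minority of the islands in Aopep and Osbpl3.

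**Figure D1:**
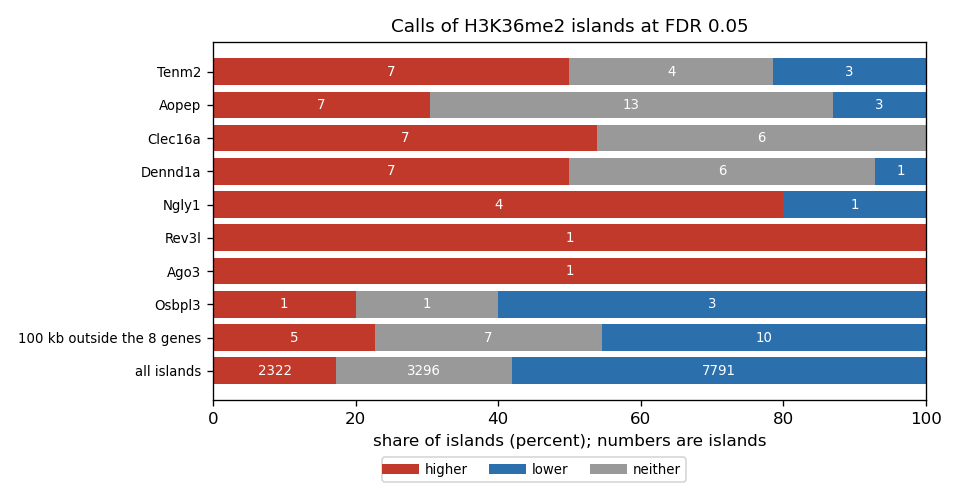
Share of H3K36me2 islands called higher (red), neither way (grey) or lower (blue) in the mutant at FDR 0.05, for each of the 8 genes with 5 kb flanks, for the 100 kb outside them and for all islands; the numbers are islands. The share of lower islands was 58.1% among all islands and 0 at Clec16a, Rev3l and Ago3.

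These calls depend on how strictly reads are compared. An exact 2-sided binomial test on the read counts of each island, with Benjamini-Hochberg adjustment over all islands, called 24 higher islands at the 8 genes (10.4% of all islands). The median mutant/WT fold of all islands was 0.814. Relative to that median, the same test called 55 of the 76 higher and 1 lower. Over all 13409 islands it called 27.8% higher and 1853 islands lower. At the deposited scaling that test gave 24 higher and 8 lower at the 8 genes. The scaling alone thus moves the split from 24 to 8 to 55 to 1. How many of all islands were lower by that test at the deposited scaling was not counted. Division by a median below 1 can only move islands toward higher.

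The reads of all islands of a gene, summed, differed much less between genotypes than the single higher islands. The depth-scaled mutant/WT read ratio was 1.05 at Tenm2 (exact binomial 95% interval 0.995 to 1.11), whose higher and lower islands offset each other. It was 1.036 at Aopep (1.004 to 1.068), 1.12 at Dennd1a (1.05 to 1.19) and 1.18 at Clec16a (1.11 to 1.25). Clec16a, the only 1 of these 4 with no lower island, had the highest ratio, though its interval overlaps that of Dennd1a. Ngly1 had 1.26 (1.13 to 1.40) and Osbpl3 0.901 (0.830 to 0.978) over its 5 islands, which cover 17.1% of its body. Relative to the median fold the Osbpl3 ratio was 1.11, on the other side of 1. Rev3l and Ago3, with 1 island each, had 2.32 (1.66 to 3.29) and 2.25 (1.52 to 3.41). Over all islands the ratio was 0.867. All intervals cover counting error only, and PCR copies are not independent molecules.

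Of the 7 members with an entry in the RefSeq promoter table (GRCm38.p6), which leaves out Rev3l, 4 had an island within 5 kb of the start. At Aopep, Ngly1 and Osbpl3 that island was lower, at Dennd1a it was called neither way, and 0 of the 4 were higher. Among all islands within 5 kb of a protein-coding start 55.3% were lower and 18.0% higher, close to the shares over all islands. The island over the Aopep start (chr13:62959001-62965200) had 162 mutant and 192 WT reads, a ratio of 0.671 (0.541 to 0.832). At Osbpl3 the island ended 631 bp before the start (chr6:50456801-50463000) with 184 against 202 reads, a ratio of 0.725 (0.590 to 0.889). At Ngly1 it ended 714 bp before the start (chr14:16243401-16248600), where the mitochondrial fatty acid synthesis gene Oxsm also lies, with 172 against 170 reads. Its ratio was 0.805 (0.647 to 1.001), and the binomial test did not call it. At Dennd1a the start lay inside an island (chr2:38283401-38290600) with 256 against 184 reads and a ratio of 1.11 (0.912 to 1.35).

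The 250 bases before the start of these 4 genes are shown because they are the sequence at or beside the islands just described. Capitals mark each CG, the dinucleotide that DNA methyltransferases modify; positions are on GRCm38.p6 and the sequences are from RefSeq, 5′ to 3′ on the gene's strand.
Aopep (chr13:62964643-62964892, plus strand): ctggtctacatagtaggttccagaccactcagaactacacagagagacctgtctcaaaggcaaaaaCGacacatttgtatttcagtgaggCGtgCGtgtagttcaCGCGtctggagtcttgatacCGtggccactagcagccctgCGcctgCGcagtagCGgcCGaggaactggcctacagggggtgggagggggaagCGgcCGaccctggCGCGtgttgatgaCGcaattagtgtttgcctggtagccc
Ngly1 (chr14:16249064-16249313, plus strand): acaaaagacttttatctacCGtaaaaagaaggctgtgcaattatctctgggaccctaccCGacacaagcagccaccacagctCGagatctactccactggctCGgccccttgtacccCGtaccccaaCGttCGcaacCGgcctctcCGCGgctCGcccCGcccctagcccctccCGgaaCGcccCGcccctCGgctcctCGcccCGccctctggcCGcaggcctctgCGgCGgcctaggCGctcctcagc
Osbpl3 (chr6:50456171-50456420, minus strand): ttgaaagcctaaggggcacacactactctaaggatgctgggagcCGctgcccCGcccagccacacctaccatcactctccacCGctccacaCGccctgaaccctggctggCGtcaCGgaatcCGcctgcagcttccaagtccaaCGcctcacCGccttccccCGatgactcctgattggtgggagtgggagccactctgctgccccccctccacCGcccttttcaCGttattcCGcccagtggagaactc
Dennd1a (chr2:38287385-38287634, minus strand): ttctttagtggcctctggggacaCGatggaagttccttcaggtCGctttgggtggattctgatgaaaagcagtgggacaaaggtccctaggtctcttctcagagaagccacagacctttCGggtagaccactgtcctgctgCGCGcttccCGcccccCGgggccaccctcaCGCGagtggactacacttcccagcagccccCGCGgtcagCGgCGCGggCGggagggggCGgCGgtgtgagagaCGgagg
The Aopep stretch lay wholly inside its lower island and held 15 CG, and the Ngly1, Osbpl3 and Dennd1a stretches held 22, 13 and 18. The median over 32851 promoter entries was 6 CG, and 92.1% held at least 1. The GC box, GGGCGG or its reverse complement CCGCCC, each of which contains a CG, was found 3 times at Ngly1, Osbpl3 and Dennd1a and 0 times at Aopep, and 32.7% of all entries had it. All 4 stretches were thus richer in CG than the median promoter, whatever the call of the island. Such counts are common: 27.3%, 14.8%, 31.5% and 21.7% of all entries held at least as many CG as Aopep, Ngly1, Osbpl3 and Dennd1a. The other members with an entry, Tenm2, Clec16a and Ago3, held 2, 15 and 27 CG.

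Tenm2 encodes teneurin-2, a large transmembrane adhesion protein that binds latrophilin receptors and is best known from synapses. Its body spans 1230 kb on the minus strand (chr11:36006656-37237053), and islands covered 6.62% of it. The RefSeq start in the promoter table lies inside that body, at 36944241. All 7 higher islands lay in the last part of the body, between 901 and 1149 kb from its 5′ end. The 3 lower islands lay before them, between 591 and 801 kb, and no higher island fell among these. The strongest lower island (chr11:36643401-36648400) had 128 mutant and 171 WT reads, a ratio of 0.595 (0.470 to 0.753). The higher island best separated from equality (chr11:36333201-36339400) had 270 against 143 reads and a ratio of 1.502 (1.22 to 1.85). Toward the 3′ end, a pair of neighbouring islands near 1139 and 1149 kb had ratios of 1.41 (1.07 to 1.88) and 1.42 (1.06 to 1.91). Thus the mutant had fewer reads in the middle of Tenm2 and more in its 3′ portion. The binomial test kept 5 of the 7 higher islands and all 3 lower ones.

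Aopep encodes aminopeptidase O, a zinc metallopeptidase of the M1 family. It spans 361 kb on the plus strand (chr13:62964893-63326096) and was the gene most covered by islands, 54.4% of its body. One lower island lay at its start and another at 14.3 kb. That at 14.3 kb had 138 reads in each pool and a ratio of 0.795 (0.624 to 1.01). After them, 4 wide islands from 84.4 to 173 kb were called neither way. The widest, 44600 bp (chr13:63055601-63100200), had 2136 mutant and 1744 WT reads and a ratio of 0.974 (0.914 to 1.038), the narrowest interval of any island here. The 7 higher islands lay from 187 kb on, among 9 islands called neither way and 1 lower island at 293 kb (ratio 0.829, 0.654 to 1.05). That at 243 kb (chr13:63204201-63211800) had 389 against 209 reads and a ratio of 1.48 (1.25 to 1.76). The last of them (chr13:63329601-63333200, ratio 1.42, 1.09 to 1.88) lay past the end of Aopep, inside the DNA repair gene Fancc, which overlaps Aopep by 24763 bp. Aopep also hosts the microRNA genes Mir23b, Mir27b and Mir24-1, which lay in no island, 5684 to 6408 bp from a higher one (ratio 1.28, 1.01 to 1.62). The binomial test kept 5 of the 7 higher islands and 1 of the 3 lower ones, that at the start.

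Clec16a encodes an endosomal and lysosomal protein that acts with the ubiquitin ligase RNF41 in mitophagy. It spans 200 kb on the plus strand (chr16:10545309-10744878), and 32.1% of the body was in islands. Its higher islands formed 2 blocks. The first block was an unbroken run of 5 islands from 22.8 to 79.7 kb, the longest run of higher islands in any of the 8 genes. Their ratios were 1.49 (1.17 to 1.91), 1.51 (1.11 to 2.06), 1.37 (1.06 to 1.78), 1.39 (1.14 to 1.70) and 1.34 (1.13 to 1.60), which do not differ beyond their intervals. The first of these islands (chr16:10566001-10570200) had 191 mutant and 102 WT reads. Then came 3 islands called neither way (ratios 0.979, 1.13 and 0.956), and the second block of 2 islands at 181 and 185 kb (1.25, 0.959 to 1.65, and 1.41, 1.04 to 1.94). Clec16a was the only 1 of the 4 members with 7 higher islands whose higher islands began in the first part of the body. The binomial test kept 6 of its 7.

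Dennd1a encodes a DENN domain protein that activates the GTPase RAB35 in endocytic recycling. It spans 488 kb on the minus strand (chr2:37798990-38287410), with 12.2% of the body in islands. Its higher islands were spread between 201 and 461 kb from the 5′ end and were interrupted by 1 lower island at 236 kb (123 mutant against 135 WT reads, ratio 0.725, 0.563 to 0.932). The highest ratio, 1.59 (1.17 to 2.17), was at 446 kb (chr2:37839601-37842400; 132 against 66 reads). Islands at 307 and 349 kb had 1.48 (1.16 to 1.90) and 1.48 (1.12 to 1.97). The other 4 higher islands rest on 120 to 240 mutant reads, had ratios from 1.21 to 1.36, and were not kept by the binomial test, so 3 of the 7 were. Dennd1a is therefore the gene whose number of higher islands rests most on weak differences.

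**Figure D2:**
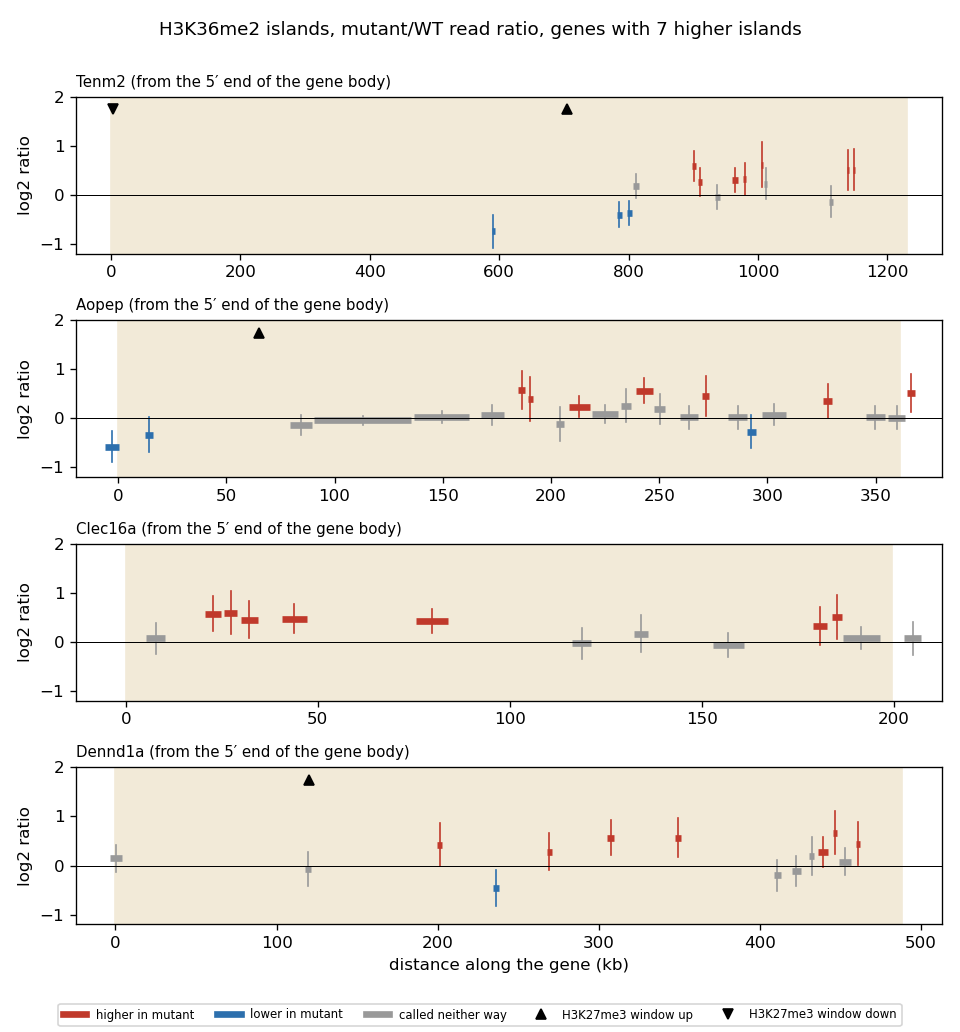
Mutant/WT H3K36me2 read ratio (log2, thick bars as wide as the island; thin lines are exact binomial 95% intervals) along Tenm2, Aopep, Clec16a and Dennd1a; x is the distance from the 5′ end of the gene body in kb, the shaded area is the body, and triangles are H3K27me3 windows that rose or fell at FDR 0.05. Higher islands lie from 901 kb on in Tenm2 and from 187 kb on in Aopep, and in 2 blocks in Clec16a.

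Ngly1, Rev3l, Ago3 and Osbpl3 each had 1 island above 2-fold. Ngly1 encodes the cytosolic N-glycanase that strips N-glycans from misfolded glycoproteins. It is the shortest member (62.6 kb, plus strand, chr14:16249314-16311926) and had the most higher islands per length, 6.39 per 100 kb of body against 0.569 at Tenm2. Its strongest island (chr14:16284801-16289000) had 167 mutant and 57 WT reads, a ratio of 2.33 (1.72 to 3.21). The next 3 islands downstream, from 46.1 to 64.4 kb, had 1.33 (1.02 to 1.73), 1.32 (1.01 to 1.72) and 1.30 (1.05 to 1.60). Read toward the 3′ end, Ngly1 thus had a lower island before its start and higher islands from 37.6 kb to just past its end. The binomial test kept 2 of these 4, at 37.6 and 64.4 kb, and not the lower one, which lies outside the body.

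Rev3l encodes the catalytic subunit of DNA polymerase zeta, which extends DNA past lesions. Its body (chr10:39731561-39875211) held 1 island, 117 kb from the end with the lower coordinate (chr10:39846601-39850000), with 140 mutant and 48 WT reads. Its ratio was 2.32 (1.66 to 3.29). Ago3 encodes an Argonaute protein that holds small RNAs. Its body (minus strand, chr4:126326994-126431670) also held 1 island, 96.7 kb from the 5′ end (chr4:126334001-126336000), with 99 mutant and 35 WT reads and a ratio of 2.25 (1.52 to 3.41). In both genes islands covered little of the body, 2.37% and 1.91%, so nothing is known here of H3K36me2 in the rest of them.

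Osbpl3 encodes a lipid-binding protein of contacts between the endoplasmic reticulum and the plasma membrane. It spans 163 kb on the minus strand (chr6:50293327-50456354). Its higher island, 36.2 kb from the 5′ end (chr6:50419001-50421400), had 110 mutant and 39 WT reads, a ratio of 2.24 (1.54 to 3.32). It lay between islands that were not higher. The island upstream at 13.4 kb had 415 against 388 reads (0.851, 0.739 to 0.980), and those downstream at 71.9 and 79.8 kb had 1.01 (0.843 to 1.22) and 0.820 (0.689 to 0.977). At the deposited scaling, Osbpl3 thus had a narrow higher island of 2400 bp among lower ones. Relative to the median fold of all islands, 0 of its islands were lower and 2 higher. The 4 ratios above 2 have intervals that overlap widely, so their order is not resolved.

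**Figure D3:**
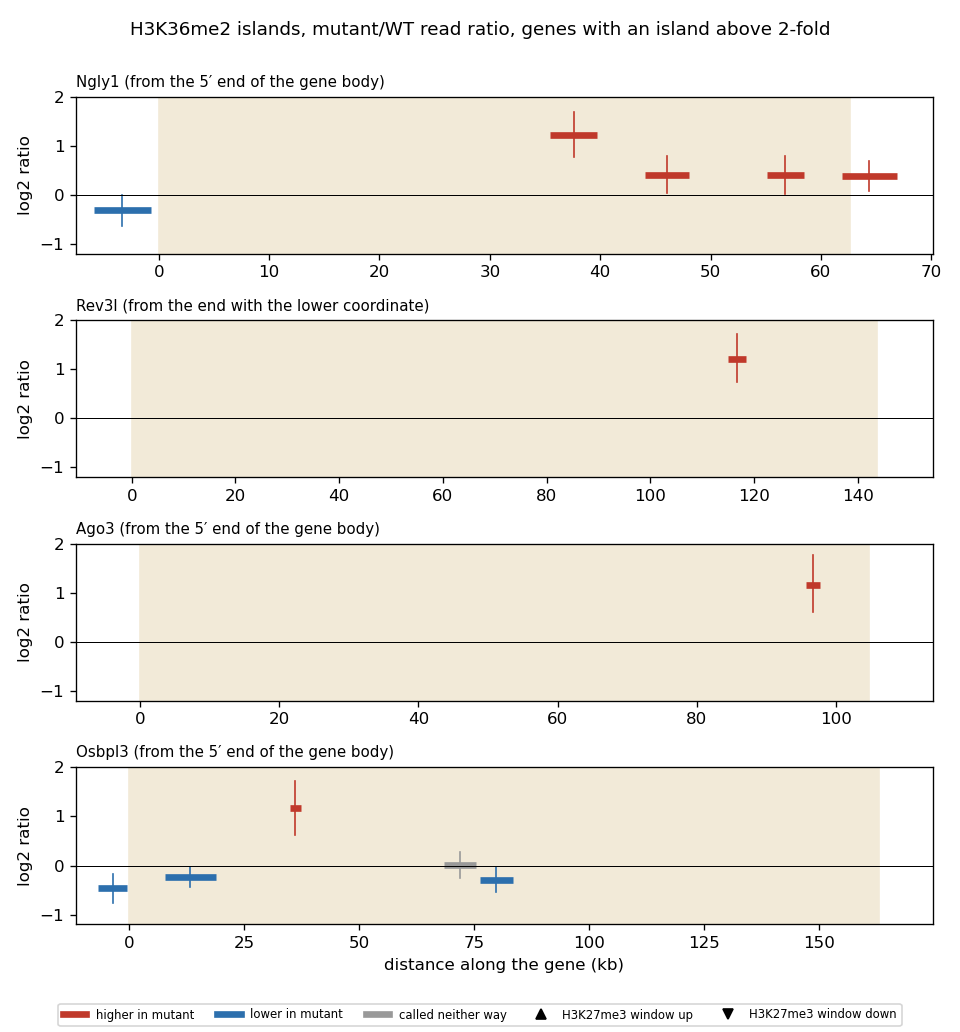
The same plot for Ngly1, Rev3l, Ago3 and Osbpl3; x is the distance from the 5′ end of the body in kb, and for Rev3l from the end with the lower coordinate. Each gene has 1 island with a ratio between 2.24 and 2.33, and Ngly1 and Osbpl3 have a lower island before the start.

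The higher islands differed from the other islands of these genes more in the WT than in the mutant. Levels here are depth-scaled read densities (RPM per kb, the pool's reads scaled to its total). Higher islands had a median of 0.730 in the mutant (range 0.610 to 0.893) and 0.526 in WT (0.287 to 0.681). Islands called neither way had 0.689 in the mutant (0.560 to 0.820) and 0.656 in WT (0.540 to 0.826). The mutant levels of both groups overlapped over most of their range, while the WT levels of higher islands reached far lower. Lower islands had 0.556 in the mutant (0.430 to 0.655) and 0.722 in WT (0.654 to 0.850). The calls are made from these same levels, so this is a description of the called islands. A stretch with few reads in both pools is not an island, so a low WT level is listed only beside a sufficient mutant level. Over all higher islands the lowest level was 0.510 in the mutant and 0.287 in WT. Over all lower islands it was 0.294 in the mutant and 0.534 in WT. The contrast is therefore not a trait of these genes. Over all islands of the series the medians were alike, 0.720 and 0.528 for higher and 0.691 and 0.683 for islands called neither way. The Ngly1 island had the lowest WT level of all 2322 higher islands, 0.287, and a mutant level of 0.668. Higher islands were also narrower, with a median width of 3600 bp against 7100 bp for those called neither way and 6200 bp for lower ones. They held a median of 247 reads over both pools against 467.5 and 354. Higher islands were also the narrowest over all islands of the series, with median widths of 3800, 4600 and 5400 bp in the same order. The median reads there were 254, 334 and 351.

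**Figure D4:**
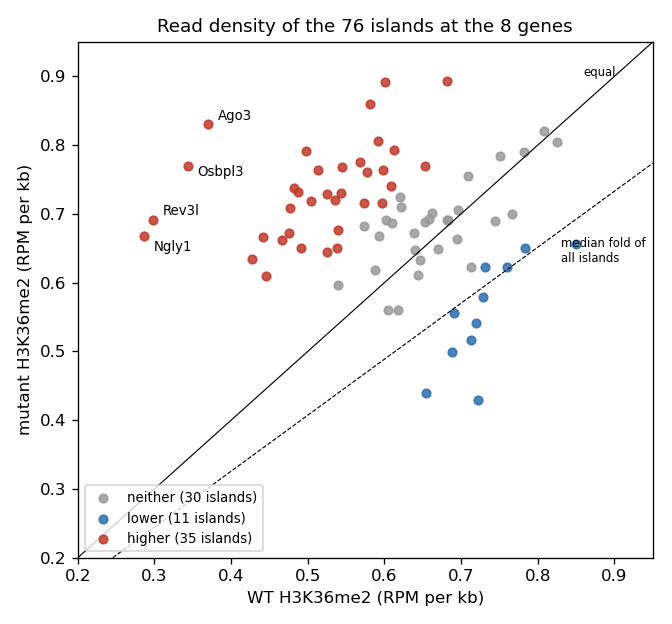
H3K36me2 read density of the 76 islands in WT (x) and mutant (y), both in RPM per kb, coloured by call; the solid line is equality and the dashed line the median fold of all islands, 0.814. The named points are the islands above 2-fold, which sit to the left, at WT densities from 0.287 to 0.370.

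Position along the gene was not part of the choice. With each body cut into 3 equal parts from the 5′ end, 5 of 12 islands were higher in the first part, 8 of 21 in the middle and 19 of 36 in the last, over the 7 genes with a known start. In all genes with a promoter entry the share of higher islands was 20.9%, 26.9% and 34.9% in the same order, and that of lower islands 47.2%, 43.2% and 36.9%. The shift of the members toward the 3′ end rests on Tenm2: without it 5 of 12, 8 of 17 and 12 of 26 islands were higher. Lower islands were 2 of 12, 5 of 21 and 1 of 36 in the members, and 2 of 12, 2 of 17 and 1 of 26 without Tenm2.

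Outside the genes the pattern did not carry on in full. The 100 kb beyond the flanks of the 8 genes held 22 islands, of which 5 were higher and 10 lower, with a summed ratio of 0.889 (0.854 to 0.926). These shares were 22.7% and 45.5%, where 17.3% and 58.1% of all islands were higher and lower. The summed ratio over all islands was 0.867. Inside, the summed ratio was 1.07 (1.05 to 1.09). Past the 3′ end of Clec16a, 4 of 6 islands were lower and 0 higher, and around Ngly1 3 of 5 were lower and 1 higher. Around Rev3l 1 of 4 was lower and 0 higher. Near Ago3 1 of 2 was higher and 0 lower, and the 1 island near Dennd1a was higher. Beside Aopep 2 were higher and 2 lower, and Fancc held both higher ones and 1 of the lower ones. No island lay within that distance of Tenm2 or Osbpl3. The inside values include the islands the genes were chosen for, so no test of the difference was made.

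DiffBind, which compares the animals rather than pools, called no H3K36me2 difference at any window of the series, where the smallest FDR was 0.139. It therefore sets these genes apart from no others. Only windows at a nominal p under 0.05 are listed, so how many tested windows lay in the higher islands is unknown. Of 18072 short windows tested for H3K36me2, 0 passed the FDR, 730 were listed at a nominal p under 0.05, and 2 of these lay at the 8 genes, both lower in the mutant. Nominally lower windows were 2.81% and higher windows 1.23% of those tested. In Tenm2 the window (chr11:36584590-36584990) had a mean of 3.97 normalised reads in the mutant and 9.91 in WT (log2 fold -0.00257, p = 0.0484 and FDR 0.9996 in the authors' deposited table). At the Aopep start (chr13:62963281-62963681) the means were 3.21 and 8.99 (log2 fold -0.00245, p = 0.0396 and FDR 0.9996 in the authors' deposited table), inside the lower island. None of the 35 higher islands contained a listed window of either mark. The share of all islands with such a window was not counted, so this is not a trait of these islands.

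H3K27me3 was measured with another antibody in the same animals and was not used in the choice. The DiffBind table lists 4285 windows at FDR under 0.05, of which 4 lay at 3 of the 8 genes, 3 of them rising and 1 falling in the mutant. Rising windows were 8.54% and falling windows 15.2% of the 18072 tested. Of all protein-coding genes 2.64% had a rising and 7.43% a falling window, and of those of at least 100 kb, which 7 of the 8 members are, 10.1% had a rising one. Tenm2, Aopep and Dennd1a had a rising window each, and Clec16a, Ngly1, Rev3l, Ago3 and Osbpl3 had no listed window.

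In Aopep the rising window (chr13:63029852-63030252) went from a mean of 2.39 normalised reads in WT to 11.7 in the mutant, a log2 fold of 1.40 at FDR 0.00741 in the authors' deposited table, whose folds lie closer to 0 than the difference of the means. It lay 65.2 kb from the 5′ end, between the lower islands near the start and the wide islands called neither way, 13949 bp from the nearest island. In Dennd1a the window at 120 kb (chr2:38167283-38167683) had 6.77 reads in the mutant, while the WT mean was at the floor of 1 read, so its size depends on that floor. The authors' deposited table gives a log2 fold of 1.33 at FDR 0.00872, and it lay inside an island called neither way (ratio 0.951, 0.747 to 1.21). In Tenm2 the rising window at 706 kb (chr11:36531267-36531667) had 10.8 mutant and 3.24 WT reads, and the authors' deposited table gives a log2 fold of 1.07 at FDR 0.0466, close to the threshold. It lay among the lower islands of Tenm2, 76467 bp from the nearest and outside the 3′ portion with higher islands. The rising windows thus lay outside the stretch from the first to the last higher island of each gene. That stretch was 252.8 kb at Tenm2 (body 1230 kb), 183.4 kb at Aopep (361 kb) and 262.4 kb at Dennd1a (488 kb). How often rising windows lie outside such stretches over all genes was not counted.

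The falling window lay 2.3 kb from the 5′ end of the Tenm2 body (chr11:37234558-37234958) and was the most heavily marked of the 4. Its mean was 63.2 normalised WT reads against 26.4 mutant reads, and the authors' deposited table gives a log2 fold of -1.15 at FDR 2.51e-05. The nearest H3K36me2 island was 586158 bp away. In Tenm2, H3K27me3 thus fell at a window near the 5′ end and rose at another in the middle.

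**Figure D5:**
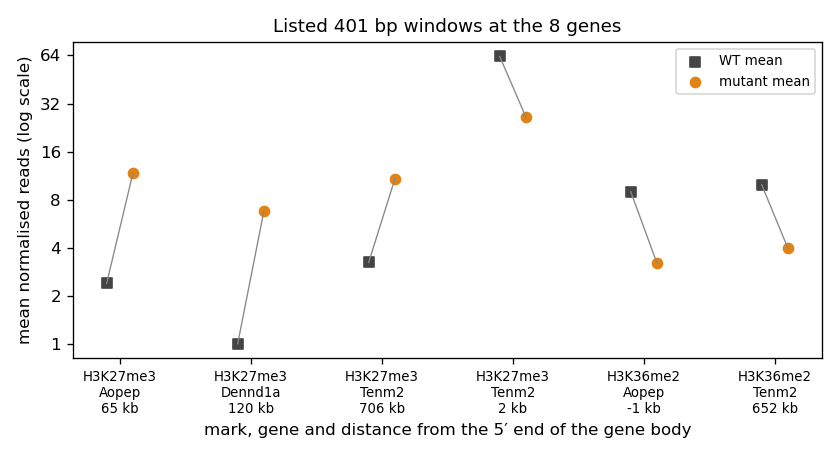
Mean normalised reads (log scale) of the 6 listed windows at the 8 genes in WT (squares) and mutant (circles), by mark, gene and distance from the 5′ end of the body in kb; each mean is over 3 animals and the spread between them is not in the table. The 3 rising H3K27me3 windows start from 1 to 3.24 reads in WT, the falling one from 63.2, and both H3K36me2 windows are lower in the mutant.

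Genes related to the 8 by function had both higher and lower islands. Of 81 relatives in 8 lists, 30 had an island, 16 a higher and 17 a lower one, with 5 genes counted in both. Of their 82 islands 19 were higher and 40 lower, where 17.3% and 58.1% of all islands were. A higher island was found at 7.13% of all protein-coding genes, and at 465 of the 2429 of at least 100 kb. The share of genes with a lower island was not counted. Among the teneurins and their latrophilin receptors, Tenm4 had 11 lower and 1 higher of 16 islands, and Tenm3 had 0 islands but 2 falling H3K27me3 windows. The latrophilin genes Adgrl2 and Adgrl3 had 1 higher island each and Adgrl1 1 lower, so 3 of the 6 genes had a higher and 2 a lower one. In the Argonaute pathway 4 of 10 genes had a higher island: Ago2, Ago4, which neighbours Ago3, Drosha, the nuclear microRNA processing enzyme, and Tnrc6c, an Argonaute partner. Only Tnrc6b there had a lower one. At Ago4 the fold was 1.44 (FDR 1.55e-04) and at Ago2 1.51 (FDR 2.17e-06) in the authors' deposited table, while Ago1, 3341 bp from Ago3, had 0 islands.

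The other lists were mixed or had mostly lower islands. In the oxysterol binding list of 13, Osbpl9 had 2 higher islands (1.44 for that with the lowest FDR in the authors' deposited table), Osbpl1a 1 higher and 3 lower, and Osbpl2 2 lower. Of 16 DENN domain genes and Rab35, 3 had a higher and 4 a lower island; Dennd2c had 2 higher (1.67 in the authors' deposited table) and Denn2b 7 lower and 1 higher. Of 11 translesion synthesis genes, Rev1, which recruits polymerase zeta, and Polk had a higher island (1.25 and 1.42 in the authors' deposited table), and Poli, Poln and Polk a lower one. Of 10 aminopeptidase genes 0 had a higher island and Anpep and Lnpep had a lower one. Of 10 genes of glycoprotein degradation 0 had a higher island, and Engase, another glycan-releasing enzyme, had a lower one. Among the CLEC16A partners, Rab7, a GTPase of late endosomes, had 1 higher island. These lists carry no test, and 7.13% of all protein-coding genes had a higher island.

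At the edge of the choice, 6 genes had 7 higher islands, the most of any gene. Besides the 4 members these were Rad51b, with 9 lower among 40 islands, and D430042O09Rik, with 1 lower among 8. Just below, Antxr1, Cers6, Mical3, Sh3pxd2a, Thada and Vps13d had 6. By the fold of the highest island near a gene, Arhgap10 (2.77), Krt14 (2.71), and Gm13276, Gm13277, Gm13278 and Ifnz (each 2.68) came first in the authors' deposited table. Ngly1, Rev3l, Ago3 and Osbpl3 ranked 7 to 10, with folds from 2.30 to 2.21 in the authors' deposited table. The next were Gm21119 (2.20), Terf1 (2.17), Mical2 (2.10) and Dusp16 (2.03) in the authors' deposited table. The steps from the last member to the next gene are smaller than the intervals of the read ratios.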

How the data were processed

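The submitters' processing notes name the mm10 (GRCm38) build and the tools SICER, Bowtie2, DESeq2 and DiffBind, with no role. Tool versions and the pooling of libraries are not given in the labels or headers. The SICER2 table as deposited holds read counts per island for the pool of each genotype, RPM, and a fold, which the values show to be the ratio of counts after adding 1 read and scaling to depth, with p-values and FDRs by the authors, per the file headers. The deposited DiffBind tables hold log2 mean normalised reads per genotype, a log2 fold closer to 0 than the difference of those means, p-values and FDRs. No table has a column per library, so depth per library and the spread between animals are unknown, and IgG was not analysed here.

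Regions were assigned to RefSeq GRCm38.p6 gene bodies with 5 kb flanks by 1 bp of overlap. Read ratios are depth-scaled without the added read, with exact (Clopper-Pearson) 95% binomial intervals. An exact 2-sided binomial test with Benjamini-Hochberg adjustment over all 13409 islands was checked on simulated counts. These counts were independent, with known folds, larger than those of most higher islands, at some islands and no shift of the median fold. They hold no spread between animals and no PCR copies, so the check does not cover these. Analyses used Python 3.11.15, scipy 1.17.1 and pandas 2.3.3. The named genes were the 8 members, genes overlapping them with flanks, the genes next to the edge of the choice, and up to 4 called genes of each list of relatives; further relatives were named after their values were seen. The members, lists and tests were chosen with earlier results of these data known. The values of 1 gene of these lists are not reported here.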

Additional observations from a re-analysis of the deposited data

How the results depend on the processing

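By the exact binomial test the 8 genes had 24 higher and 8 lower islands at the deposited scaling, and 55 higher and 1 lower relative to the median fold of all islands, against 35 and 11 by the authors' FDR. Relative to that median, 27.8% of all islands were higher and 1853 of 13409 lower. The summed read ratio over all members became 1.31 relative to it. The median island fold of the members was 1.14, against a summed ratio of 1.07. Osbpl3 alone changed direction, from a ratio of 0.901 to 1.11 relative to the median. A genome-wide loss of the mark and a difference in scaling cannot be told apart by such a division. The count of nominal H3K36me2 windows was 1 in gene bodies alone and 0 at p under 0.01. The higher count stayed within 1.5 times of 35 with no flank, 20 kb flanks, FDR under 0.01, at least 50 reads, midpoints in place of overlap, and the binomial test (24). Rising H3K27me3 windows numbered 2 at FDR under 0.01 and 3 otherwise, and the falling count was 1 in every alternative run. For single genes, 128 values were within that limit or their interval; the exceptions include 3 higher islands at Dennd1a and 2 at Ngly1 by the binomial test, and ratios of 1.46 and 1.07 at Ngly1 without flanks and with 20 kb flanks. No paired analysis was possible because the tables hold no column per library and no animal belongs to both genotypes; for the same reason no replicate could be left out.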

Other observations

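Near the 8 genes but outside their flanks, 2 H3K27me3 windows fell in the mutant at Lhx2, a LIM homeobox gene active in hair follicle stem cells that lies upstream of Dennd1a. Their means were 98.03 normalised reads in WT against 31.2 in the mutant (chr2:38355029-38355429) and 55.9 against 24.5 (chr2:38342621-38343021), with log2 folds of -1.50 and -0.99 in the authors' deposited table. Downstream of Clec16a, an H3K27me3 window (chr16:10807805-10808205) rose from 3.86 to 20.9 reads, a log2 fold of 1.70 at FDR 4.22e-04 in the authors' deposited table. It lay 1796 bp from the nearest island. In Ciita, the class II transactivator gene upstream of Clec16a, a nominal H3K36me2 window (chr16:10489246-10489646) had means of 9.23 normalised reads in the mutant and 4.34 in WT. For it the authors' deposited DiffBind table gives a log2 fold of 0.00288, p = 0.0466 and FDR 0.9996, so it is not a called difference.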
